A study of Mus musculus with 22 samples.

Results

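The 9 genes described here encode transcription factors of the post-implantation epiblast: Otx2, Pou3f1, Sox3, Sall2, Utf1, Grhl2, Foxd3, Zic2 and Zic5. They were chosen by symbol from the deposited gene counts, and all 9 were found among its 33973 gene names, which fill 34489 rows. Foxd3 fills 2 of these rows (ENSMUSG00000067261 and ENSMUSG00000116152), so that the 9 genes gave 10 rows. The second Foxd3 identifier is not in the annotation used here, and it held 46.7% of the Foxd3 counts. How reads were split between the rows is uncertain, and levels of Foxd3 below are sums over both.

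After implantation, the epiblast leaves naive pluripotency, goes through a formative phase and becomes primed for gastrulation. Otx2 and Pou3f1 (also called Oct6) act with Oct4 at enhancers that open during this change, Grhl2 opens enhancers of epithelial genes, and Zic, Sox and Sall factors are shared between late epiblast and early neural tissue. Mouse epiblast stem cells (mEpiSCs) keep the primed state in culture with FGF2 and Activin A, whereas mouse embryonic stem cells (mESCs) keep the naive state in 2iL, a medium with inhibitors of MEK and GSK3 and the cytokine LIF.

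RNA-seq covered 22 libraries of mouse cells in a study of reversion from primed to naive pluripotency by activators of the kinase AMPK (AICAR, A769662 and metformin). Naive mESCs gave 1 library of the Rex1-GFP line (129/Ola), in which the Rex1 promoter drives a GFP. Primed mEpiSCs gave 2, from Oct4GIP (129/Ola), in which an Oct4 promoter drives GFP and puromycin resistance, and from 129/MSM. The study derived 129/MSM from 129X1/SvJ females and MSM/Ms males. It lists 129/MSM as XY and Oct4GIP and Rex1-GFP as XX. A difference between 129/MSM and Oct4GIP therefore cannot be told apart from one of strain or sex. Primed Oct4GIP cells grew on fibronectin and primed 129/MSM cells on mouse embryonic fibroblast (MEF) feeders. For reversion, mEpiSCs were kept on MEF feeders for 16 days, and the d8 and d16 groups hold 4 Oct4GIP cultures each, harvested whole with their feeders. These 4 had Basal medium alone, Basal medium with AICAR, the same with LIF added, or 2iL. Cells from day 16 were then expanded in 2iL. The d16+2–3p group holds 4 Oct4GIP libraries (AICAR and AICAR+LIF after 2 and after 3 passages). The d16+10p group holds 7 libraries after 10 passages, from Oct4GIP with AICAR, AICAR+LIF, A769662, A769662+LIF or metformin+LIF and from 129/MSM with AICAR or AICAR+LIF. No condition had a replicate library. The libraries of a group therefore stood in as its replicates, and their spread includes differences between treatments, passages and lines. The naive library was compared in no test, although it was part of the fits of all 22 libraries.

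Library totals ran from 438771 (AICAR+LIF d8) to 5290163 counts (Basal d16) with a median of 2848382. Levels are given as counts per 1000000 counts of the library (CPM), scaled by edgeR's TMM factors, which correct for library composition. Marker lists followed the labels of the expanded and primed cells. The summed level of 12 naive factors (such as Esrrb, Klf4 and Zfp42) was 4797 CPM in naive mESCs, 141 and 296 CPM in primed mEpiSCs and between 3085 and 5380 CPM in the 11 reverted libraries. In the d8 and d16 cultures it was between 48.4 and 146 CPM, while 11 fibroblast markers (such as Col1a1 and Dcn) summed to between 3229 and 50560 CPM. Pou5f1, which encodes Oct4, was at 470 and 831 CPM in the primed libraries and between 0.742 and 34.5 CPM in the d8 and d16 cultures.

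On GRCm38 (GENCODE M21), Otx2 lies on chromosome 14 (48657677 to 48673819, minus strand), and so do Sall2 (52311172 to 52328762, minus strand), Zic5 (122456795 to 122465677, minus strand) and Zic2 (122475435 to 122479852, plus strand). The start sites of Zic5 and Zic2 are 9.8 kb apart and point away from each other. Pou3f1 (124656807 to 124660655) and Foxd3 (99656299 to 99658622) are on the plus strand of chromosome 4, and Sox3 is on the minus strand of chromosome X (60891366 to 60893430). Utf1 is on the plus strand of chromosome 7 (139943789 to 139945112) and Grhl2 on that of chromosome 15 (37233036 to 37363569). Although 4 of the 9 genes are on chromosome 14, the median log2 fold change of its 396 expressed genes between d16+10p and primed cells was −0.06, against 0.01 for all 11721 genes with a mean of at least 10 CPM. On chromosome X it was −0.13.

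The RefSeq promoter table (build GRCm38.p6) matched 5 of the 9 genes with 9 promoters. The upstream sequences of Foxd3 and Utf1 are shown because these genes held no or almost no counts in the d8 and d16 cultures and were present again after expansion, and capitals mark CpG dinucleotides. The last 67 bases before the RefSeq start of Utf1 lie in its GENCODE exon and are left out.
Foxd3, chr4:99656049-99656298, plus strand: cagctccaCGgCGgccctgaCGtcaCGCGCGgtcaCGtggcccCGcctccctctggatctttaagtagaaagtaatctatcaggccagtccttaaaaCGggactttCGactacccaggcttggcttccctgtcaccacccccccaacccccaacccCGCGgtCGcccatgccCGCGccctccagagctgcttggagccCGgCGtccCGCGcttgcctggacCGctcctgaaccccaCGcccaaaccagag
Utf1, chr7:139943606-139943788, plus strand: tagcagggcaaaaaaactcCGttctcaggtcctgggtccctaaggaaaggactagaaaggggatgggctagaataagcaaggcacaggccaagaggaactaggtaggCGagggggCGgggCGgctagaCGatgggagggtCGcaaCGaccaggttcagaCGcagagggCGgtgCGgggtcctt
Over 250 bases upstream, Foxd3 held 21 CpGs, more than 83.7% of 32851 promoters, and Utf1 held 14, more than 70.6%. The promoters of the 5 genes were also searched on both strands for the letters TAATCC (OTX), ATGCAAAT (octamer), AACAAT (SOX), TGTTTAC (forkhead), AACCNGTT (GRHL) and CAGCAGG (ZIC) within 250 bases upstream. All promoters held these in 6.25%, 1.6%, 9.42%, 3.17%, 1.79% and 8.44% of cases. Of the 9 promoters, 1 held a match, to TAATCC, which overlapped with no other motif. It lies in an internal promoter of Otx2 itself, 211 bases before that start, and is on the strand opposite to the gene, so that the capitals that mark it here read GGATTA.
Otx2, chr14:48665305-48665330, minus strand: tgtgcccctcGGATTAtctcgttagt
A match of letters is a description of this window only.

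**Figure D1:**
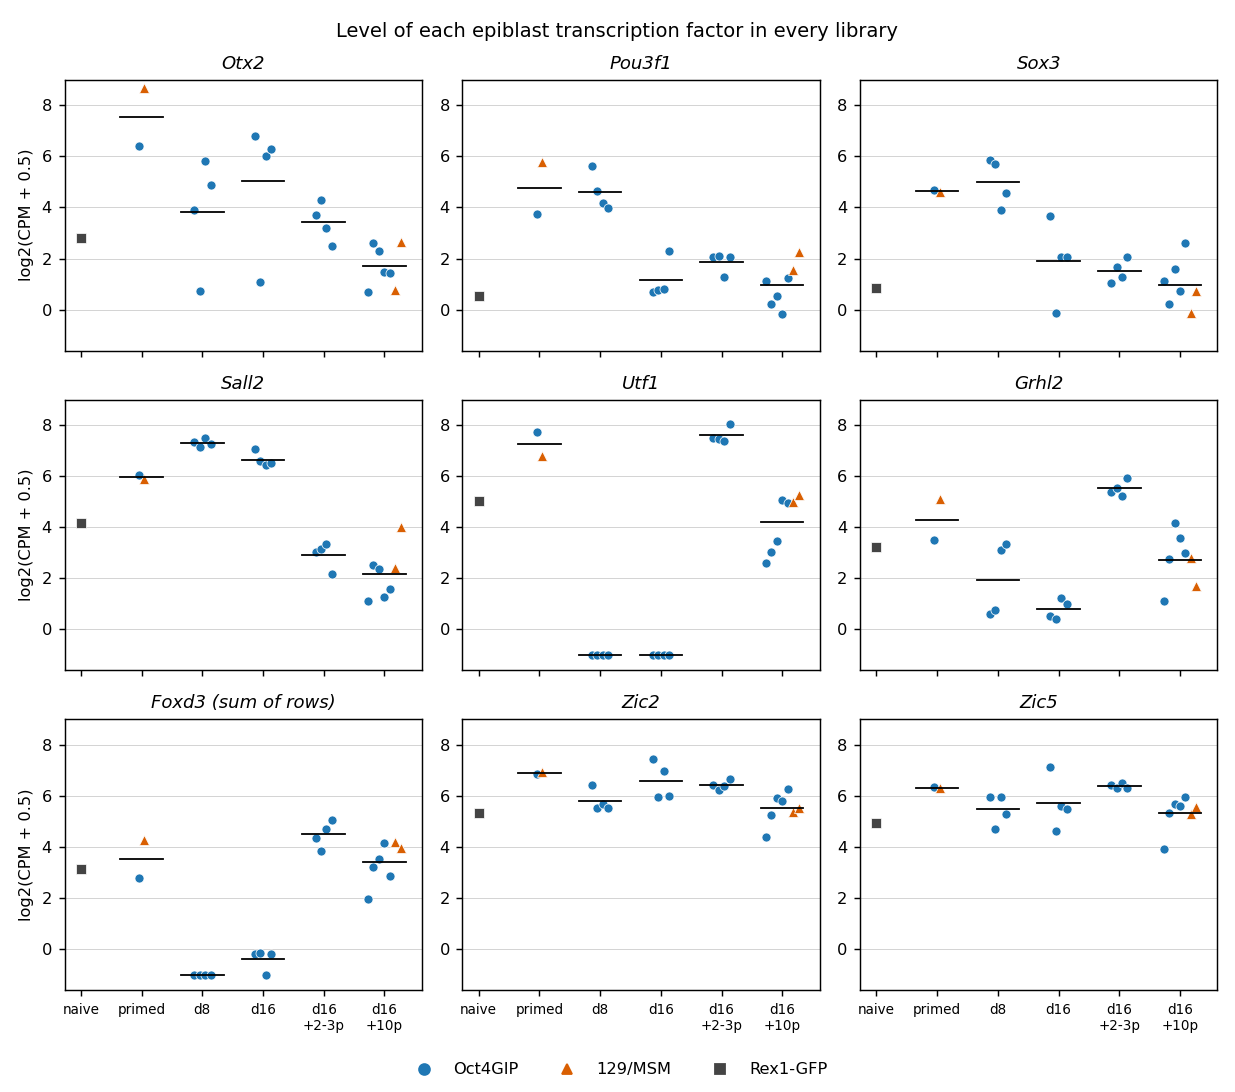
Levels of the 9 genes in all 22 libraries, as log2(CPM + 0.5), with 1 panel per gene and libraries grouped by state along the horizontal axis. Points are single libraries, marked by cell line, and lines are group means of the plotted values. Otx2, Pou3f1, Sox3 and Sall2 are low in both groups of reverted cells, Utf1, Grhl2 and Foxd3 are low at d16+10p or in the early cultures, and Zic2 and Zic5 vary least.

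The first comparison asked which of these factors differed between reverted cells and primed mEpiSCs. The primed group held 1 library of each line, whereas all d16+2–3p libraries were of Oct4GIP. After 2 or 3 passages, Otx2, Pou3f1, Sox3 and Sall2 had fallen, whereas Utf1, Grhl2, Foxd3, Zic2 and Zic5 did not pass the test. After 10 passages, Utf1, Grhl2 and Zic2 had fallen as well. In counts, 4 of 10 rows were lower and none higher at d16+2–3p (edgeR's quasi-likelihood test, Benjamini-Hochberg adjusted p under 0.05), where 20.3% of all genes tested were called lower, 18% higher and 38.3% in either direction. At d16+10p 7 of 10 rows were lower and none higher, where 19.9% of genes were called lower, 16.7% higher and 36.6% in either direction. Both comparisons share the same 2 primed libraries. The median log2 fold change of the 10 rows was −0.23 at d16+2–3p and −2.17 at d16+10p, against −0.04 and −0.01 over all genes tested.

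Otx2, a homeobox factor needed for the exit from naive pluripotency and later for the forebrain, had 84.8 CPM in primed Oct4GIP and 407 CPM in primed 129/MSM mEpiSCs. After 2 passages it was at 12.6 CPM (AICAR) and 19.1 CPM (AICAR+LIF), and after 3 passages at 8.76 and 5.11 CPM. At d16+10p the lowest, median and highest of the 7 libraries were 1.12, 2.28 and 5.81 CPM. Both primed libraries lay above all 11 reverted libraries, with no overlap. The naive library, at 6.40 CPM, was above every d16+10p library, on 20 counts against 2 to 17. Otx2 thus changed by −4.44 on the log2 scale (SE 0.93, adjusted p = 0.000813, edgeR) at d16+2–3p and by −6.17 (SE 0.83, adjusted p = 7.41e-06, edgeR) at d16+10p. Without the primed 129/MSM library these were −2.89 (adjusted p = 0.0426) and −4.65 (adjusted p = 0.00102).

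Pou3f1, a POU-domain partner of Otx2, had 13.1 CPM in primed Oct4GIP and 54.7 CPM in primed 129/MSM. It was at 3.69 and 3.82 CPM after 2 passages and at 1.91 and 3.65 CPM after 3 (AICAR and AICAR+LIF). After 10 passages it ran from 0.381 to 4.26 CPM (median 1.68), which is 1 to 11 counts per library. All reverted libraries lay below both primed libraries, and the naive library, at 0.961 CPM or 3 counts, was within the d16+10p range. Pou3f1 fell by 3.37 on the log2 scale (SE 0.64, adjusted p = 0.000333, edgeR) at d16+2–3p and fell by 4.25 (SE 0.56, adjusted p = 6.29e-06, edgeR) at d16+10p. Without the primed 129/MSM library its values were −1.99 (adjusted p = 0.0455) and −2.89 (adjusted p = 0.00315).

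Sox3, an X-linked SoxB1 factor of the late epiblast and neural progenitors, differed little between the primed libraries, at 25.0 CPM in Oct4GIP and 23.5 CPM in 129/MSM. It was at 1.54 and 2.67 CPM after 2 passages and at 1.91 and 3.65 CPM after 3. Its d16+10p libraries ran from 0.405 to 5.59 CPM with a median of 1.16, and the highest library was metformin+LIF. The reverted groups overlapped each other, and neither overlapped with primed cells. The naive library (1.28 CPM, 4 counts) was within the d16+10p range, which held 1 to 18 counts per library. It was also below all d16+2–3p libraries, but these held only 5 to 10 counts each, so that this order rests on few counts. Sox3 fell by 3.32 (SE 0.75, adjusted p = 0.00165, edgeR) at d16+2–3p, and fell by 3.60 on the log2 scale at d16+10p (SE 0.65, adjusted p = 0.000187, edgeR).

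Sall2, a zinc finger factor of the Spalt family, also had close primed levels, of 66.1 CPM in Oct4GIP and 58.0 CPM in 129/MSM. It was at 7.70 and 8.39 CPM after 2 passages and at 9.53 and 4.01 CPM after 3. After 10 passages Sall2 ran from 1.68 to 15.5 CPM (median 4.71), with 129/MSM AICAR+LIF the highest. Again no reverted library reached a primed one. The naive library was at 17.6 CPM, above every reverted library. Sall2 fell by 3.08 (SE 0.46, adjusted p = 2.89e-05, edgeR) at d16+2–3p, and fell by 3.53 on the log2 scale at d16+10p (SE 0.40, adjusted p = 8.96e-07, edgeR). For Otx2, Pou3f1, Sox3 and Sall2, the calls against primed cells held in both comparisons without either primed library or any single reverted one.

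Utf1, a chromatin-associated factor of pluripotent cells, behaved otherwise. It had 213 CPM in primed Oct4GIP and 109 CPM in primed 129/MSM. It was at 179.8 and 174 CPM after 2 passages and at 165 and 266 CPM after 3. All 4 early-passage libraries, which were of Oct4GIP, were thus above the 129/MSM primed library. Only AICAR+LIF after 3 passages was above primed Oct4GIP. At d16+10p it ran from 5.59 to 38.0 CPM with a median of 30.1, all below both primed libraries, and the naive library (32.3 CPM) was within this range. Its log2 fold change from primed was 0.26 (SE 0.56, 95% interval −0.94 to 1.47, adjusted p = 0.753, edgeR) at d16+2–3p and −2.83 (SE 0.48, adjusted p = 0.000285, edgeR) at d16+10p.

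Grhl2, a grainyhead factor of epithelial and formative cells, had 10.8 CPM in primed Oct4GIP and 33.8 CPM in primed 129/MSM. It was at 41.3 and 45.4 CPM after 2 passages and at 37.3 and 60.2 CPM after 3, above both primed libraries. The d16+10p libraries ran from 1.68 to 17.6 CPM (median 6.48), a range that overlapped with primed Oct4GIP and held the naive level of 8.97 CPM. The log2 fold change from primed was 1.02 (SE 0.66, adjusted p = 0.238, edgeR) at d16+2–3p, and 2.08 (adjusted p = 0.0992) without the primed 129/MSM library or 0.43 (adjusted p = 0.733) without primed Oct4GIP. For d16+10p it was −1.50 (SE 0.57, adjusted p = 0.0445, edgeR), and this call rested on the choice of libraries. It was −0.46 (adjusted p = 0.708) without the primed 129/MSM library and −0.28 (adjusted p = 0.827) without all 129/MSM libraries. The call was also lost without AICAR, AICAR+LIF or metformin+LIF of Oct4GIP or without either 129/MSM library at d16+10p (adjusted p from 0.0587 to 0.069), with DESeq2 (adjusted p = 0.0654) and in a fit of the 2 groups alone (adjusted p = 0.0651).

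Foxd3, a forkhead factor that acts in pluripotent cells and neural crest, had 6.35 CPM in primed Oct4GIP and 19.0 CPM in primed 129/MSM, summed over its rows. It was at 19.7 and 13.7 CPM after 2 passages and at 25.9 and 33.2 CPM after 3. At d16+10p it ran from 3.35 to 17.8 CPM with a median of 11.0, and the naive library was at 8.33 CPM. Both reverted groups overlapped with the primed range, and neither row passed the test against primed cells. All d16+2–3p libraries, which were of Oct4GIP, were above primed Oct4GIP, which held 17 counts. At d16+2–3p the log2 fold change ran from 0.11 to 1.53 for the first row and from 0.44 to 2.27 for the second over other settings. For the sum, the log2 fold change was 0.83 (SE 0.57, adjusted p = 0.263, edgeR) at d16+2–3p and −0.13 (SE 0.51, adjusted p = 0.879, edgeR) at d16+10p.

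Zic2 and Zic5, zinc finger neighbours that are read in opposite directions, were present in every library. Zic2 had 116 and 121 CPM in primed Oct4GIP and 129/MSM, 84.7 and 74.4 CPM after 2 passages and 83.4 and 99.6 CPM after 3. After 10 passages Zic2 ran from 20.7 to 77 CPM (median 45.3), below both primed libraries and around the naive level of 40.0 CPM. The log2 fold change of Zic2 was −0.49 (SE 0.39, adjusted p = 0.336, edgeR) at d16+2–3p, and at d16+10p Zic2 fell by 1.28 (SE 0.35, adjusted p = 0.00634, edgeR). Without the 129/MSM libraries the latter was −1.22 with an adjusted p of 0.0757. Zic5 had 81.4 and 77.9 CPM in the primed libraries, 85.0, 77.8, 91.4 and 79.1 CPM at d16+2–3p, and 14.5 to 61.2 CPM (median 46.9) at d16+10p, with 30.4 CPM in naive mESCs. All 7 libraries at d16+10p lay below both primed ones, but the log2 fold change of −0.87 (SE 0.44, adjusted p = 0.125, edgeR) did not pass the test. At d16+2–3p it was 0.04 (SE 0.49, adjusted p = 0.966, edgeR). In fits of the 2 groups alone, Zic2 was called lower at d16+2–3p (adjusted p = 0.0304) and Zic5 at d16+10p (adjusted p = 0.0447).

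**Figure D2:**
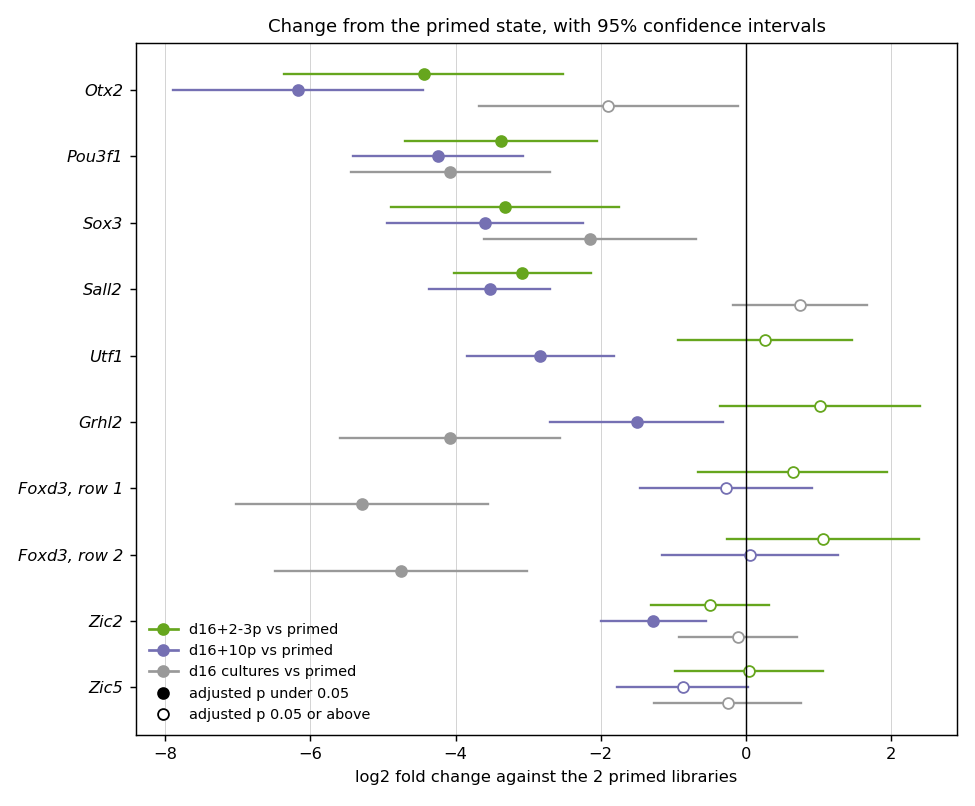
Log2 fold changes of the 10 rows against the 2 primed libraries, with 95% confidence intervals from edgeR, for d16+2–3p, d16+10p and d16 cultures. Filled points have an adjusted p under 0.05. Utf1 at d16 is not drawn because all 4 of its libraries had 0 counts. Otx2, Pou3f1, Sox3 and Sall2 lie to the left of 0 in both reverted groups, and Utf1, Grhl2, Zic5 and the first Foxd3 row lie to the right of 0, with no call, at 2–3 passages and to the left at 10, where Utf1 and Grhl2 were called.

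The next comparison asked how levels moved between 2–3 and 10 passages in 2iL. Utf1 and Grhl2 fell, and no row was called higher. Thus 2 of 10 rows were called lower, where 4.61% of all genes tested were called lower, 4.75% higher and 9.35% in either direction. Utf1 fell by 3.09 on the log2 scale (SE 0.41, adjusted p = 0.000521, edgeR), from at least 165 CPM in each d16+2–3p library to at most 38.0 CPM at d16+10p. Grhl2 fell by 2.52 (SE 0.47, adjusted p = 0.0018, edgeR), from at least 37.3 CPM to at most 17.6 CPM. Neither pair of groups overlapped.

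No other row passed the test between passages. Zic5 also did not overlap between the groups, at 77.8 CPM or more before and 61.2 CPM or less after, but its log2 fold change of −0.92 (SE 0.35, adjusted p = 0.111, edgeR) did not pass the test. The value for Zic2 was −0.78 (SE 0.29, adjusted p = 0.0932), for Otx2 −1.73 (SE 0.83, adjusted p = 0.215) and for the Foxd3 sum −0.96 (SE 0.39, adjusted p = 0.14). Sox3, Sall2 and Pou3f1 were at −0.28, −0.45 and −0.87, with adjusted p from 0.401 to 0.865. When the spread was estimated from the 11 libraries of these 2 groups alone, Otx2 (adjusted p = 0.0129), Zic2 (0.0265) and Zic5 (0.0113) were called too. Single libraries also decided calls, since Zic2 was called without metformin+LIF (adjusted p = 0.0471) and Sall2 without 129/MSM AICAR+LIF (−1.01, adjusted p = 0.0372).

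**Figure D3:**
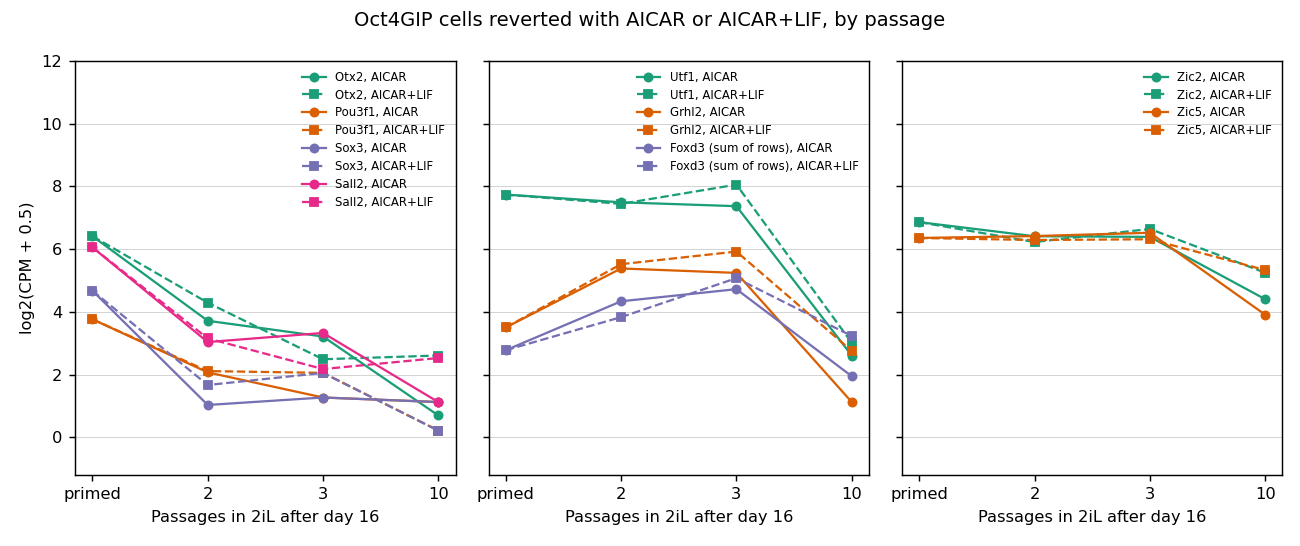
Levels by passage in Oct4GIP cells that were reverted with AICAR (solid lines) or AICAR+LIF (dashed lines), as log2(CPM + 0.5), from 1 library per point. Both lines of a gene start at the same primed Oct4GIP library. Otx2, Sox3 and Sall2 are far below their primed level after 2 passages, while Utf1 is near its primed level at passages 2 and 3 and lower at passage 10. The d8 and d16 cultures, where Utf1 had 0 counts, are not drawn.

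Among the 7 libraries at d16+10p, Oct4GIP AICAR was the lowest for 7 of the 9 genes (Otx2, Zic2, Zic5, Sall2, Utf1, Grhl2 and Foxd3). This library also had the lowest total of its group, 1689495 counts, and was at 1.12 CPM for Otx2, 5.59 CPM for Utf1, 1.68 CPM for Grhl2 and 14.5 CPM for Zic5. Its count was 2 for Otx2, 3 for Sall2 and Grhl2 and 6 for Foxd3, and the part of its depth in these levels was not tested. Without it and both low-total d8 libraries, the same number of rows was called against primed cells (7 at d16+10p and 4 at d16+2–3p) and between passages (2). Utf1 fell into a lower and a higher set at d16+10p. Oct4GIP AICAR, AICAR+LIF and A769662 were at 5.59, 7.56 and 10.4 CPM, and metformin+LIF, A769662+LIF and 129/MSM AICAR and AICAR+LIF were at 30.1, 32.7, 31.2 and 38.0 CPM. With 1 library per treatment and line, the activators were not tested against each other.

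LIF during the first 16 days was compared in 4 pairs of AICAR+LIF and AICAR libraries of the same line and passage. Utf1 was at 174 against 179.8 CPM at 2 passages, 266 against 165 CPM at 3, and 7.56 against 5.59 CPM at 10, and in 129/MSM at 38.0 against 31.2 CPM. It was thus higher with LIF in 3 of 4 pairs, and so were Otx2, Grhl2, Zic2, Sall2, Sox3 and Pou3f1. None of the 8 rows tested was called (edgeR, 0% of 12940 genes, of which 310 had an unadjusted p under 0.05), nor was any in DESeq2 or limma voom. The smallest unadjusted p was that of Utf1, at 0.33 on the log2 scale (SE 0.14, 95% interval 0.01 to 0.66, unadjusted p = 0.0448, adjusted p = 1, edgeR). Pou3f1 and Sox3 had too few counts for the filter.

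The 129/MSM and Oct4GIP lines were compared within d16+10p and within primed cells. At d16+10p only Sall2 was called, higher in 129/MSM at 4.86 CPM (AICAR) and 15.5 CPM (AICAR+LIF) than in Oct4GIP, where AICAR was at 1.68 CPM and 5.26 with LIF added, A769662 at 4.71 CPM and 1.90 with LIF added, and metformin+LIF at 2.48 CPM. The groups overlapped. The log2 fold change was 1.63 (SE 0.42, adjusted p = 0.0388, edgeR), with 1.96% of all genes called higher, 1.12% lower and 3.07% in either direction. It rested on 129/MSM AICAR+LIF, without which it was 0.57 (adjusted p = 0.872). The call was also lost without Oct4GIP AICAR, A769662+LIF or metformin+LIF (adjusted p from 0.0707 to 0.078) and in limma voom (adjusted p = 0.136). When only the AICAR and AICAR+LIF libraries of both lines were used, Utf1 was called in place of Sall2, at 2.39 higher in 129/MSM (adjusted p = 0.00246).

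In primed cells, with 1 library per line and the spread taken from the other groups, no row was called in edgeR (3.02% of all genes were, 2.26% higher and 0.758% lower) and 1, Pou3f1, in limma voom (adjusted p = 0.0452). The largest differences were those of Otx2, higher in 129/MSM by 2.26 on the log2 scale (SE 1.46, adjusted p = 0.46, edgeR), and Pou3f1, by 2.06 (SE 0.82, adjusted p = 0.193, edgeR). The latter was the only row with an unadjusted p under 0.05, at 0.0219. The 129/MSM library also held more of the fibroblast markers, 654 against 35.9 CPM, and their part in these levels was not tested. On simulated counts, the test of the primed lines recovered 1 of 100 changes of 1 on the log2 scale and 49 of 100 changes of 2. For the difference between lines across states, given next, it was 1 and 11 of 100. A lack of calls in these 2 tests therefore does not show that the lines were alike. No row passed the test of whether the difference between lines itself differed between states (1.38% of all genes did, 0.326% higher and 1.05% lower), with Sall2 (0.0145) and Grhl2 (0.0449) at an unadjusted p under 0.05. Grhl2 had the largest value, −2.58 (SE 1.2, adjusted p = 0.319, edgeR), as it was higher in 129/MSM when primed and, at the mean, lower at d16+10p.

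The last comparisons concerned the whole cultures before expansion. At day 16, Utf1, Foxd3, Grhl2, Pou3f1 and Sox3 were lower than in primed mEpiSCs, whereas Sall2 was above both primed libraries and Zic2 and Zic5 overlapped with them. Of the 10 rows, 6 were called lower and none higher, where 20.4% of all genes tested were called lower, 22% higher and 42.4% in either direction. These cultures were compared with the same 2 primed libraries as the reverted cells were. In such mixed cultures, fewer cells of a type and less RNA per cell cannot be told apart. At d16 the 11 fibroblast markers summed to 5575 CPM in Basal, 50560 CPM in 2iL, 16770 CPM in AICAR and 19470 CPM in AICAR+LIF, against 3229 to 3560 CPM at d8, and 10 of the 11 were called higher at d16 than in primed cells. Their part in the levels below was not tested.

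Utf1 had 0 counts in all 8 cultures, against 571 and 339 counts in the primed libraries. Pooled over libraries, 3 counts would be 0.423 CPM at d8 and 0.218 CPM at d16, so that Utf1 was at least 372-fold lower at d8 and at least 723-fold lower at d16 than its pooled primed level of 157 CPM, where the limits cover counting error only. The d16 difference was called (adjusted p = 2.01e-06, edgeR). Foxd3 had 0 counts in all d8 libraries, at least 31.1-fold below its pooled primed level of 13.1 CPM, and at least 15-fold below primed Oct4GIP, the line of these cultures. At d16 it had 2 counts in Basal, 1 in 2iL, 0 in AICAR and 1 in AICAR+LIF, which is 45.3-fold lower (exact binomial 95% interval 17.0 to 170 by counts alone), or 21.9-fold (7.14 to 89.4) lower than in primed Oct4GIP. In AICAR+LIF d8 alone 3 counts are 5.75 CPM, so that Foxd3 could not be told there from its primed Oct4GIP level. The edgeR test of the Foxd3 sum gave −5.22 on the log2 scale (SE 0.72, adjusted p = 2.98e-05).

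Grhl2 was at 1.03 CPM (Basal), 1.17 CPM (2iL), 8.22 CPM (AICAR) and 9.58 CPM (AICAR+LIF) at d8, and at 0.927, 0.812, 1.85 and 1.49 CPM at d16. The libraries with AICAR were the higher ones on both days, on 9 and 5 counts at d8 and 6 and 4 at d16. The sum of 9 epithelial markers was also higher with AICAR at d8 (799.9 and 1404 CPM, against 64.8 and 31.7 CPM in Basal and 2iL) but lower at d16 (133.7 and 134.8 CPM, against 281.4 and 401.8 CPM), and its part in the Grhl2 levels was not tested. Against primed cells Grhl2 fell by 4.07 at d16 (SE 0.73, adjusted p = 2e-04, edgeR), and by 3.08 (adjusted p = 0.0103) without the primed 129/MSM library. Pou3f1 was at 48.4, 24.3, 17.4 and 15.3 CPM at d8 in the same order, and at 1.11, 1.22, 1.24 and 4.47 CPM at d16. Its d8 levels lay within the primed range, but all were above primed Oct4GIP, the line of these cultures, at 13.1 CPM. Those with AICAR were nearest to that level and rested on 19 counts (AICAR) and 8 counts (AICAR+LIF). Sox3 was at 56.9, 52.0, 14.6 and 23 CPM at d8 and at 12.1, 0.406, 3.71 and 3.72 CPM at d16. At d8 Sox3 was thus above both primed libraries in Basal and 2iL and below them with AICAR, on 16 counts (AICAR) and 12 counts (AICAR+LIF). The AICAR+LIF level was close to the 23.5 CPM of primed 129/MSM, so that this order rests on few counts. At d16 both Pou3f1 and Sox3 were below the primed range in every library. Against primed cells, Pou3f1 fell by 4.07 (SE 0.66, adjusted p = 7.72e-05, edgeR) and Sox3 by 2.15 (SE 0.70, adjusted p = 0.0183, edgeR) at d16. For Pou3f1 it was −2.75 (adjusted p = 0.00726) without the primed 129/MSM library. The Sox3 call was lost without the primed Oct4GIP library (adjusted p = 0.0734), without all 129/MSM libraries (adjusted p = 0.0577) and in a fit of the 2 groups alone (adjusted p = 0.0743).

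Sall2 was at 162, 141, 179.9 and 151 CPM at d8 and at 132, 95.4, 85.2 and 92.0 CPM at d16, above the primed libraries on both days. Its log2 fold change from primed was 0.74 at d16 (SE 0.44, adjusted p = 0.187, edgeR) and did not pass the test, but passed in limma voom (adjusted p = 0.0245). Otx2 was at 14.4, 1.17, 55.7 and 28.7 CPM at d8 and at 111, 1.62, 63.3 and 78.2 CPM at d16. On both days the 2iL culture was lowest, with 3 and 4 counts. The other cultures reached 14.4 CPM or more. This split was seen after the values were known and was not tested. The change of Otx2 from primed at d16 was −1.90 (SE 0.86, adjusted p = 0.0802, edgeR), and it was called in limma voom (adjusted p = 0.0497). Without the primed Oct4GIP library it was −2.62, and over all other settings it ran from −2.62 to −0.32. Primed Oct4GIP, the line of these cultures, was at 84.8 CPM, within the range of the d16 cultures.

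Zic2 was at 86.1, 45.0, 50.2 and 46.0 CPM at d8 and at 174, 62.1, 126 and 63.3 CPM at d16. Zic5 was at 62.1, 25.4, 62.1 and 38.3 CPM at d8 and at 139, 24, 48.5 and 44.7 CPM at d16. Basal d16 was the highest library for both genes. Their log2 fold changes from primed at d16 were −0.11 (SE 0.39, adjusted p = 0.858, edgeR) and −0.25 (SE 0.48, adjusted p = 0.709, edgeR), with 95% intervals of −0.93 to 0.70 and −1.26 to 0.75. Without Basal d16, Zic5 was called lower, at −0.99 (adjusted p = 0.0472).

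Between day 8 and day 16, with the treatment as a covariate, Pou3f1, Sox3 and Sall2 fell and Zic2 rose. These are 4 of the 6 rows that passed the filter on low counts, where 9.5% of all genes tested were called lower, 14.7% higher and 24.2% in either direction. Pou3f1 fell by 3.89 on the log2 scale (SE 0.57, adjusted p = 0.00768, edgeR) and in all 4 treatments. Sox3 fell by 2.96 (SE 0.62, adjusted p = 0.0191, edgeR), also in all 4, although the call was lost without Basal d8 (adjusted p = 0.0576) or Basal d16 (adjusted p = 0.056). Sall2 fell by 0.70 (SE 0.19, adjusted p = 0.0409, edgeR) and Zic2 rose by 0.80 (SE 0.21, adjusted p = 0.0342, edgeR), each in 4 of 4 treatments. The Sall2 call was lost without any single library (adjusted p from 0.0536 to 0.151). The Zic2 call was lost without any of Basal, 2iL and AICAR on either day (adjusted p from 0.0541 to 0.132) and without the covariate (adjusted p = 0.132). It was also lost without scaling factors, where no row was called higher. Otx2 was higher at d16 in 4 of 4 treatments, by 1.39 (SE 0.52, adjusted p = 0.0917, edgeR). In edgeR it was called without AICAR d8 (adjusted p = 0.0419), without AICAR d16 (adjusted p = 0.0448) and with no filter (1.42, SE 0.34, adjusted p = 0.00186). The summed level of 10 neural markers was higher at d8 (1138 to 5634 CPM, highest in Basal and 2iL) than at d16 (667 to 1211 CPM), and 8 of the 10 were called lower at d16. Sox3 and Pou3f1 were highest at d8 in the same Basal and 2iL libraries, and the part of neural cells in their levels was not tested.

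The effect of AICAR, with or without LIF, was tested against the other 2 media over both days. None of the 6 rows tested was called (9.6% of all genes were, 3.54% higher and 6.06% lower), in edgeR, DESeq2 or limma voom, and none had an unadjusted p under 0.05 in edgeR. Sox3 had the smallest unadjusted p, 0.0749, at −1.21 on the log2 scale (SE 0.60, 95% interval −2.58 to 0.15), and was lower with AICAR in all 4 pairings at d8 and overlapped with the untreated range at d16. Without the 2iL d16 library it was −1.59 with an adjusted p of 0.00529. Otx2 was 1.22 higher (SE 1, 95% interval −1.06 to 3.49, adjusted p = 0.456, edgeR). Grhl2, Utf1 and Foxd3 did not pass the filter. With no filter, edgeR called Otx2 (1.19, SE 0.26, adjusted p = 0.000107) and Grhl2 (1.96, SE 0.65, adjusted p = 0.0284) higher with AICAR. It called Sox3 (−1.25, SE 0.33, adjusted p = 0.00245) lower. The Otx2 and Sox3 values were near those with the filter, and only their SEs were much smaller. Otx2 with AICAR (28.7 to 78.2 CPM) lay within the range of the other 2 media (1.17 to 111 CPM). Its AICAR libraries were above both other media at d8 and between them at d16.

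**Figure D4:**
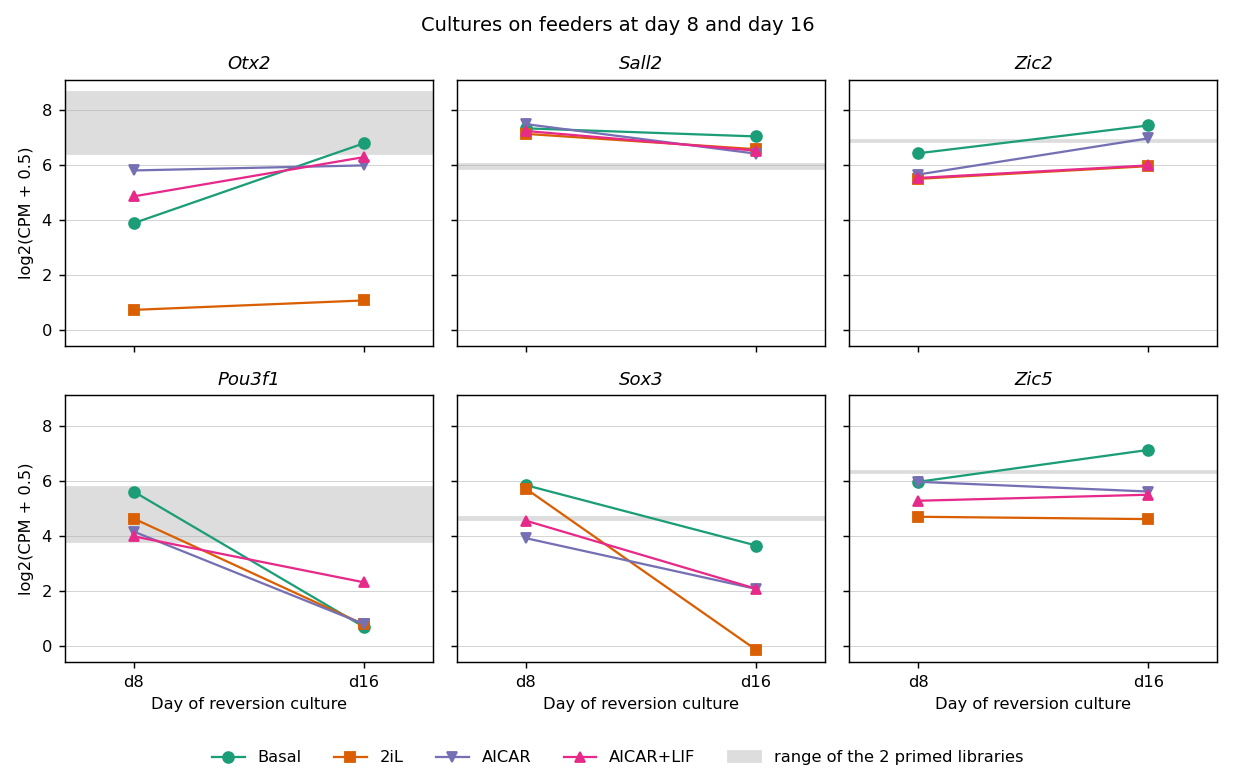
Levels of 6 genes in the d8 and d16 cultures by treatment, as log2(CPM + 0.5), with 1 library per point. Grey bands span the 2 primed libraries. Pou3f1 and Sox3 drop from d8 to d16 in each treatment, Sall2 stays above the primed band, and Otx2 in 2iL is at 1.17 and 1.62 CPM.

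The list of 13 paralogs of these factors (Otx1, Pou3f2, Pou3f3, Pou3f4, Zic1, Zic4, Sox1, Sox2, Sall1, Sall3, Sall4, Grhl1 and Grhl3) includes genes that moved against them. At d16+10p none of the 13 was called lower than in primed cells and 2 were called higher, where 19.9% and 16.7% of all genes tested were. The count of higher calls was thus near the share over all genes. The median log2 fold change of the 13 was 0.55. Sall3 rose by 4.97 on the log2 scale (SE 0.82, adjusted p = 7.4e-05, edgeR), from between 1.49 and 1.61 CPM to between 44.7 and 59.5 CPM, and Sox2 by 2.44 (SE 0.35, adjusted p = 1.39e-05, edgeR), from between 53.5 and 59.8 CPM to between 253 and 340 CPM. Sall2 and Sall3, and Sox3 and Sox2, thus changed in opposite directions in the same comparison. In the d16 cultures 9 of the 13 were higher than in primed cells and 3 lower, where 22% and 20.4% of all genes tested were. Zic4 rose to between 34.9 and 244 CPM, Zic1 to between 156 and 670 CPM and Pou3f3 to between 25.9 and 155 CPM, from at most 0.373, 1.61 and 0.747 CPM in primed cells.

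Among 13 further factors of the epiblast, 5 were lower and 1 higher at d16+10p, where 19.9% and 16.7% of all genes tested were. Those lower were led by Sox11 at −4.17 (SE 0.54, adjusted p = 5.17e-06, edgeR) and Sox4 at −3.69 (SE 0.47, adjusted p = 4.05e-06, edgeR). The median log2 fold change of the 13 was −0.68. Etv5 was the factor called higher, by 1.06 (SE 0.38, adjusted p = 0.0354, edgeR). Of 13 other epiblast genes, such as Fgf5 and Car14, 10 were lower and none higher at d16+10p. At d16+2–3p 7 were lower, where 20.3% of all genes tested were. Between passages 4 genes of this list fell, where 4.61% of all genes tested were called lower. Among them was Dnmt3b, a DNA methyltransferase of the formative epiblast. Dnmt3b fell by 2.05 (SE 0.41, adjusted p = 0.00308, edgeR), from between 439 and 570 CPM to between 41.5 and 231 CPM. Utf1 and Grhl2 fell between passages too. Of the 12 naive factors, 12 were higher at d16+10p than in primed cells and 11 at d16+2–3p, where 16.7% and 18% of all genes tested were. Of the neural, neural crest and epithelial lists, 1 of 10, 1 of 6 and 4 of 9 were lower and 1, 2 and none higher at d16+10p, and of the fibroblast list 10 of 11 were lower, with sums between 13.2 and 15.6 CPM. Twist2, a fibroblast marker, was at 0 in every reverted library.

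Correlations of log2 CPM over the 22 libraries describe which levels moved together, over libraries that share lines, treatments and depth. Utf1 and Foxd3 were closest, at r = 0.95 for the first Foxd3 row and 0.94 for the second, followed by Zic2 and Zic5 at 0.83, Sox3 and Pou3f1 at 0.80 and Utf1 and Grhl2 at 0.79. Sall2 ran against Utf1 (r = −0.70) and Foxd3 (−0.78 and −0.79). In the d8 and d16 cultures Utf1 had 0 counts and each Foxd3 row at most 1 count per library. These libraries enter every r of Utf1 and Foxd3 given here, and their part in it was not tested. Among 10843 genes with a mean log2 CPM of at least 3, those most like Utf1 were Gm19792, Hdgf and Btf3 (r from 0.954 to 0.969), and those most like Grhl2 were Ajuba, Ascc3 and Dnmt3b (0.894 to 0.933). For Sall2 they were Zfp358, Dbn1 and Zfp334 (0.957 to 0.965), for Sox3 Kdm7a, Chd7 and Fbxl20 (0.872 to 0.908), for Pou3f1 Top1, Cadm1 and Peli1 (0.856 to 0.872) and for Otx2 Itga3, Patj and Dusp6 (0.838 to 0.848). For the first Foxd3 row they were Bcat2, Gm13464 and Zfp473 (0.956 to 0.969). Zic5 was the gene most like Zic2, ahead of Casc4 and Atp5e (0.752 and 0.737), and Zic2 the one most like Zic5, ahead of Apoo and Cnnm3 (0.737 and 0.72).

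Per kilobase of exon, the order of the 9 genes in primed cells was Utf1 (131 CPM per kb), Otx2 (58.2), Zic2 (41.2), Zic5 (16.3), Sox3 (11.8), Sall2 (11.4), Pou3f1 (8.81), Foxd3 (5.45) and Grhl2 (2.59), as means of 2 libraries. Otx2 spanned 20.1 to 96.4 CPM per kb, so that it overlapped with both Utf1 and Zic2, Sox3 and Sall2 differed by less than 1 CPM per kb, and the ranges of Pou3f1, Foxd3 and Grhl2 overlapped. At d16+10p the order was Utf1 (18.1), Zic2 (16.8), Zic5 (8.77), Foxd3 (4.92), and then Sall2, Sox3, Grhl2, Otx2 and Pou3f1, all between 0.453 and 0.957, as means of 7 libraries. The ranges of neighbours in this order overlapped throughout, for example 4.55 to 30.9 for Utf1 and 7.17 to 26.7 for Zic2. Foxd3, next to last in primed cells, thus followed Zic5 at d16+10p, without a called change of its own.

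On the level of transcripts, Pou3f1, Sox3, Utf1 and the first Foxd3 row each had 1 counted transcript. The retained-intron transcript of Zic2 held between 8.73% and 12.1% of its counts in every group. The 2 coding transcripts of Sall2 held 52.7% and 47.3% of its counts in primed cells and 56.6% and 43.4% at d16+10p. Reads shared by transcripts of a gene cannot be assigned with certainty, and these shares were not tested. Antisense genes overlap Otx2 (Otx2os1, at most 16 counts in a library), Pou3f1 (Gm2164, at most 3) and Grhl2 (Gm16136, at most 6), and whether counting used the strand is not given in the sources used here.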

How the data were processed

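Total RNA from cultured mouse cells was made into TruSeq stranded mRNA libraries and sequenced as single reads by the authors. Per the labels and methods, reads were mapped with Bowtie2 2.2.5 to Ensembl GRCm38 transcript sequences, alignments with a MAPQ of at least 1 were kept, and reads per gene and per transcript were deposited as whole counts without normalization. Near-identical copies can therefore lose or share reads. The transcript counts were used for shares within a gene only, and a deposited file with the number of detected genes was not used.

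Libraries were grouped by the labels into 6 groups. Counts were tested with edgeR 4.0.16 (quasi-likelihood, TMM factors, filterByExpr, Benjamini-Hochberg at 0.05) in R 4.3.3. Fits held all 22 libraries or, for d8 and d16, those 8. The LIF fit held the 8 expanded libraries with AICAR or AICAR+LIF. Tests across groups kept 18739 genes, the d8 and d16 tests 14026 and the LIF test 12940. SEs are the log2 fold change divided by the root of the F statistic. Alternatives were DESeq2 1.42.0, limma voom 3.58.1, other factors, no filter, other libraries or covariates, and each library left out in turn, and 2 more, with the Foxd3 rows summed and with pooled ratios of Utf1 and Foxd3 against primed Oct4GIP alone, were chosen after seeing the data. The scripts were tested on simulated counts. Levels are CPM on TMM-scaled totals, figures use log2(CPM + 0.5), and 3 counts is the floor. In the deepest library (Basal d16) 3 counts equal 0.556 CPM, and in the shallowest (AICAR+LIF d8) they equal 5.75 CPM. Intervals cover counting error only where they are so named, and p-values measure the spread between these libraries. The closest pair of libraries within a group (AICAR and AICAR+LIF, d16+2p) still differed by more than sampling noise (chi-square per degree of freedom 1.39 over 13451 genes).

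The text names all 9 genes throughout. From each list and comparison it names genes among the 4 with an adjusted p under 0.05 and the largest change, and as likest genes the 3 with the highest Pearson r. Other named list genes (Etv5, Pou5f1, Twist2) were chosen after their values were seen. The lists were paralogs, further epiblast factors, other epiblast genes, naive factors, and fibroblast, neural, neural crest and epithelial markers, with Sox1 and Krt18 each in 2 lists. A further gene was left out of the lists and is not reported here. The genes and lists were chosen with earlier results of these data known.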

Additional observations from a re-analysis of the deposited data

Results flagged for a closer look

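Each gene was checked in each group of 4 or 7 libraries. Of 33 such sets, 6 held a library that stood apart from the others of its group (the gap to the nearest library, divided by the range, was above Dixon's 95% critical value). Chance alone marks about 1 in 20 such sets. Otx2 was at 1.62 CPM in 2iL d16, where the other d16 cultures were between 63.3 and 111 CPM. Pou3f1 was at 1.9 CPM in AICAR d16+3p, below the 3.65 to 3.82 CPM of the other early-passage libraries, and at 4.47 CPM in AICAR+LIF d16, above the 1.11 to 1.24 CPM of the other d16 cultures, on 12 counts. Zic2 was at 86.1 CPM in Basal d8, against 45.0 to 50.2 CPM in the other d8 cultures. Zic5 was at 14.5 CPM in Oct4GIP AICAR d16+10p, against 38.5 to 61.2 CPM in the other libraries after 10 passages. Foxd3 was at 0 CPM in AICAR d16, against 0.371 to 0.406 CPM in the other d16 cultures, which is a difference between 0 and 1 or 2 counts.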

How the results depend on the processing

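Of 1385 values of single genes under other settings, 1276 kept their direction and side of the threshold, 40 lost a call, 21 gained one, 45 changed sign and 3 mean levels moved by more than their SD. The threshold was an adjusted p of 0.05, no call changed sign, and the cause of each change was not tested. No paired analysis was possible because the labels carry no replicate numbers that the groups share, but LIF and the change from d8 to d16 were tested within pairs, with line and passage or the treatment as a covariate. With DESeq2, 2140 genes were called for AICAR (edgeR 1347), 880 for the lines at d16+10p, 987 for the primed lines and 721 for the difference between lines. In a fit of the 2 groups alone, 3002 genes (5 of the 10 rows) were called between passages and 4702 between d16 and primed cells. For AICAR, no filter gave 3143 genes (3 rows), no covariate 37, and leaving out the lowest-total libraries 0, with 3007 genes at an unadjusted p under 0.05. For the lines at d16+10p, matched libraries gave 1051 genes, and 0 rows were called in limma voom and without the lowest-total libraries. In limma voom 1 row was called between primed lines, the difference between lines gave 499 genes without the lowest-total libraries, and LIF gave 68 with no filter. With each library left out in turn, the number of genes called was 4462 to 6766 for d16+10p against primed, 939 to 1847 between passages, 245 to 2654 for AICAR (0 to 1 row), 1148 to 2700 for d16 against d8 (1 to 3 rows), 123 to 563 for the lines at d16+10p (0 to 1 row) and 126 to 258 for the difference between lines.

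Uncalled log2 values changed sign as follows. Without scaling factors, the second Foxd3 row was at −0.043 at d16+10p and Zic5 at −0.089 at d16+2–3p. Without the 129/MSM libraries, the first Foxd3 row was at 0.24 against primed, and Sox3 at 0 between passages. Without the lowest-total libraries, Pou3f1 was at 1.23 for AICAR, Otx2 at −0.015 and Zic5 at −0.21 between lines at d16+10p, Zic5 at −0.11 for the difference between lines and Zic5 at −0.02 for LIF. Between lines at d16+10p, Otx2 was at −0.023 in limma voom, Zic5 at −0.024 with no filter, and Grhl2 at 0.11 and Zic2 at 0.58 in matched libraries. For LIF, the Foxd3 sum was at 0.087. With each library left out in turn, ranges spanned 0 for Foxd3 at d16+10p (first row −0.80 to 0.59, second row −0.57 to 1.24), for Zic5 (−0.018 to 0.076) and Utf1 (−0.13 to 0.82) at d16+2–3p, and for Zic5 (−0.99 to 0.069) and Zic2 (−0.46 to 0.13) at d16. They also did for AICAR in Pou3f1 (−0.78 to 0.29), Zic5 (−0.61 to 0.56), Sall2 (−0.19 to 0.079) and Zic2 (−0.62 to 0.046), and for Zic5 between days (−0.17 to 0.47). Between lines they did for Zic5 (−0.18 to 0.17) and Otx2 (−1.36 to 0.86), for Zic5 in the difference between lines (−0.11 to 0.24), and for LIF in Zic5 (−0.021 to 0.36), Sall2 (−0.079 to 0.98) and the first Foxd3 row (−0.18 to 0.042).

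In 438771 counts, the smallest library, 3 counts are 5.75 CPM, so low levels of Grhl2 and Foxd3 at d8 were not detectable library by library. The naive state had 1 library, and each treatment at d16+10p had 1 library per line.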
